A study of Gallus gallus with 6 samples.

Results

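The genes described here encode the mitochondrial respiratory chain and the mitochondrial carriers of the inner membrane. They were defined by symbol, with earlier results of these data known. The rule took probe sets assigned to a single gene whose present chicken symbol begins with NDUF, UQCR, COX followed by a digit, or ATP5, is SDHA, SDHB, SDHC, SDHD, CYCS or CYC1, or is SLC25A followed by a number. This gave 116 genes read by 218 probe sets, out of 13051 genes and 38439 probe sets on the array. The respiratory complexes with cytochrome c accounted for 83 genes and the carriers for 33. A gene with several probe sets was read by its brightest one, by mean log2 intensity over the 6 arrays, a choice made without the group labels.

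Electrons from NADH and succinate enter the respiratory chain at complexes I and II, pass through complex III and cytochrome c to oxygen at complex IV, and the proton gradient so formed drives the ATP synthase, complex V. The carriers of the SLC25 family move nucleotides, phosphate, amino acids, carboxylates and metal ions across the same membrane, so that they link the matrix to the cytosol. In red cell precursors they are also known for bringing iron and glycine to the site of heme synthesis.

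Chick embryos were electroporated at HH3 with 2 reporters and collected at HH5-6 as 3 pools, each of 4 embryos. The Hb-eGFP+ group (n = 3 arrays) held the eGFP+ cells, in which eGFP is driven by a -255 to -204 bp piece of the Cerberus upstream region in front of the minimal promoter of human beta-globin, and a legend of the study names another version of the reporter, PCR2. The RFP+ control group (n = 3 arrays) held the eGFP-/RFP+ cells of embryos carrying the same reporters, with RFP under the ubiquitous CAGGS promoter. It is a mixture of electroporated cells sorted as eGFP-, which were not selected by tissue. The deposited values are linear signal intensities, with array medians of 87.7 to 91.1, and the labels call the samples biological replicates. Both populations were sorted from each pool at once, so every pool gave 1 sample of each group, but the sources do not say whether equal replicate numbers mark a shared pool. The fit reported below treats the samples as unpaired. For the 116 genes, calls that a fit with the replicate number as a block did not keep are named beside the result. For other genes, whether calls hold in that fit or without 1 array is not reported here. The number of arrays limits the precision.

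The labels were checked first. The GFP probe set read 16931, 17346 and 16970 in the Hb-eGFP+ arrays, against 992, 836 and 949 in the RFP+ control arrays. TAL1, a blood transcription factor, averaged 6356 in Hb-eGFP+ and 1673 in RFP+ control cells, and its cofactor LMO2 3447 and 741 (n = 3 each). All 6 markers of blood and endothelial progenitors were higher, with a summed intensity of 18435 to 19283 in Hb-eGFP+ arrays and 5661 to 6139 in RFP+ control arrays. All 3 neuroectoderm markers were lower, with sums of 424 to 558 in Hb-eGFP+ arrays and 5523 to 5549 in RFP+ control arrays. Both endoderm markers were lower, with sums of 6122 to 6949 in Hb-eGFP+ arrays and 12173 to 13584 in RFP+ control arrays. Of the 2 paraxial mesoderm markers 1 was lower and 1 was not called, at a log2 fold change of 0.008. Of the erythroid markers, SLC4A1 averaged 72.2 in Hb-eGFP+ and 91.4 in RFP+ control cells and was lower (log2 fold change -0.34), while HBZ averaged 777 and 662 and was not called (0.24), with no overlap between arrays for either. The summed intensity of this pair, mostly HBZ, was 824 to 890 in Hb-eGFP+ arrays and 687 to 830 in RFP+ control arrays. The Hb-eGFP+ mean of SLC4A1 lay below the median probe set of every array, and SLC4A1 was not shown to lie above background. Of the 3 muscle markers TNNT2 was higher, MYH7 lower and ACTC1 not called, and their sums were 2161 to 2387 in Hb-eGFP+ arrays and 1584 to 1766 in RFP+ control arrays. In these bulk samples a different mix of cells and a different amount of RNA per cell cannot be told apart, and the part of the cell mix in the differences below was not tested. Log2 intensities had an interquartile range of 2.32 to 2.39 in Hb-eGFP+ arrays and 2.42 to 2.48 in RFP+ control arrays.

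Most respiratory chain genes differed little between Hb-eGFP+ and RFP+ control cells. Each of the 13051 genes was tested with limma, a linear model that shares information on the spread between genes, with Benjamini-Hochberg adjustment, and is termed called below where the adjusted p was under 0.05. Of the 83 genes, 7 were called higher in Hb-eGFP+ cells, 1 was called lower and 75 were not called. The count of 7 is not stable: it was 1, 3 and 0 when Hb-eGFP+ replicate 1, 2 or 3 was left out, and 1, 1 and 5 when RFP+ control replicate 1, 2 or 3 was left out. It was also 1 with the replicate block and 1 with adjustment over all probe sets, whereas the lower call was made in each of these fits. The 7 and 1 are 8.43% and 1.20% of the respiratory genes, beside 9.19% called higher and 10.7% called lower over all genes (19.9% in either direction). The median log2 fold change was 0.07, beside 0.01 over all genes. In single arrays the median of these 83 genes, relative to the mean of the RFP+ control arrays, was 0.080, 0.069 and 0.057 in Hb-eGFP+ cells and -0.015, -0.033 and 0.058 in RFP+ control cells. The groups overlapped by this measure, because RFP+ control replicate 3 lay as high as Hb-eGFP+ replicate 3. No respiratory or carrier gene reached a fold of 1.7 in either direction, the minimum in the methods of the study, and none had a lower 90% bound of the fold above it, beside 1.28% higher and 2.15% lower over all genes.

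**Figure D1:**
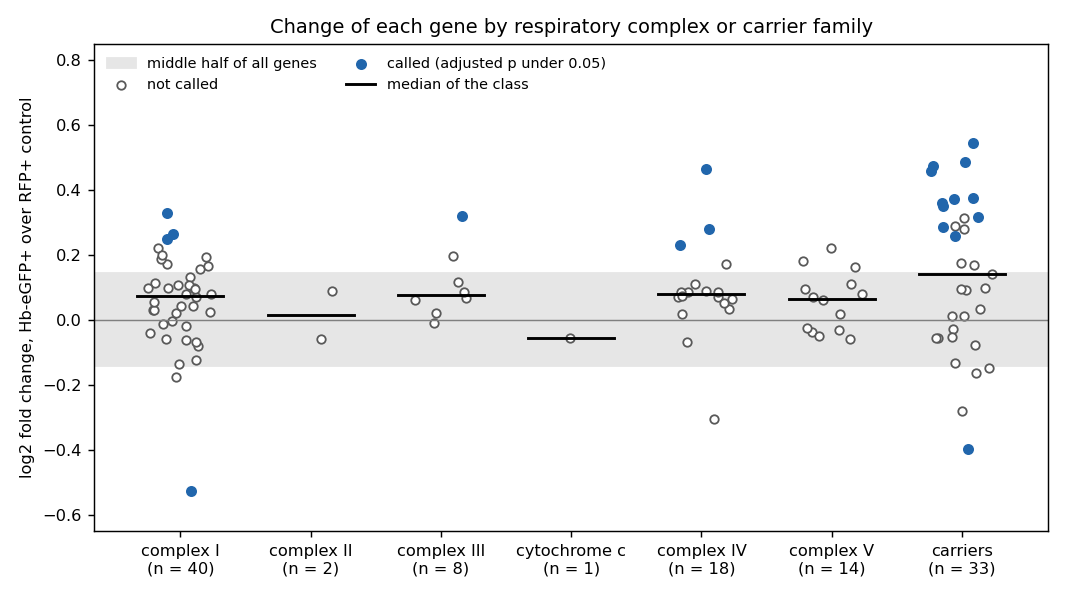
Each point is a gene, placed by its complex or as a carrier (x axis, with the number of genes) and by its log2 fold change of Hb-eGFP+ over RFP+ control cells (y axis, n = 3 arrays each). Filled points passed an adjusted p under 0.05 from limma, bars are class medians and the grey band spans the quartiles of all genes. Of the carriers 11 lay among the filled points above zero and 1 below, of the respiratory genes 7 and 1.

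Because a missed threshold does not show equality, the 95% intervals of the fold changes were examined. For 78 of the 83 respiratory genes (94.0%) the interval lay between -0.5 and 0.5 on the log2 scale, that is within 1.41-fold in either direction, beside 71.3% of all genes. The band was chosen after the values had been seen. The 5 genes outside it were NDUFS4, NDUFB2, UQCR11, COX17 and COX11. The 78 include ATP5J and COX7B, which read below the median probe set of every array. They were not shown to lie above background, so their intervals say little about the genes. The standard error of the log2 fold change ranged from 0.06 to 0.13 over the respiratory genes, with a median of 0.07, and its median over all genes was 0.09.

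Complex I, the entry point for NADH, was read by 32 subunit genes and 8 genes of assembly factors. Of the subunits 3 were higher and 1 was lower, that is 9.38% and 3.13%, beside 9.19% and 10.7% of all genes. NDUFS4, a subunit whose loss in humans impairs complex I, had the largest change of any respiratory gene. Its intensity was 470, 511 and 524 in Hb-eGFP+ cells, against 679, 733 and 752 in RFP+ control cells. Every Hb-eGFP+ array lay below every RFP+ control array, and the means were 501 ± 28.3 and 721 ± 37.6 (SD, n = 3 each; log2 fold change -0.52 with a standard error, SE, of 0.08, limma adjusted p = 0.0027). The call was kept in each of the 14 alternative fits. A second, dim NDUFS4 probe set averaged 35.8 in Hb-eGFP+ cells and 41.6 in RFP+ control cells, with no overlap between arrays, and was not called (adjusted p = 0.20 over all probe sets).

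The 3 higher subunit genes of complex I changed less. NDUFB2, an accessory subunit, read 2608, 2351 and 2473 in Hb-eGFP+ cells, against 1769, 1995 and 2164 in RFP+ control cells (log2 fold change 0.33, SE 0.09, limma adjusted p = 0.042). NDUFA9, an accessory subunit near the site where ubiquinone binds, read 3918, 4096 and 4007, against 3307, 3352 and 3347 (0.26, SE 0.06, limma adjusted p = 0.021). NDUFS8, which carries iron-sulfur clusters, read 1320, 1284 and 1392 in Hb-eGFP+ cells, against 1067, 1163 and 1129 in RFP+ control cells (0.25, SE 0.07, limma adjusted p = 0.042). In all 3 the Hb-eGFP+ arrays lay above the RFP+ control arrays. These calls depend on single arrays. That of NDUFS8 was lost without any 1 of the 6 arrays (adjusted p 0.057 to 0.15), that of NDUFB2 without any array but RFP+ control replicate 3 (adjusted p 0.056 to 0.13), and that of NDUFA9 without Hb-eGFP+ replicate 2 or 3 or RFP+ control replicate 1 or 2 (adjusted p 0.056 to 0.081). With the replicate block none of the 3 was called (adjusted p 0.083 for NDUFB2, 0.062 for NDUFA9 and 0.089 for NDUFS8). The further probe sets of NDUFB2 and NDUFA9 averaged 88.6 and 134 in Hb-eGFP+ cells and 83.5 and 129 in RFP+ control cells, and neither was called.

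The other 28 subunit genes of complex I were not called. NDUFS6, an accessory subunit, averaged 6625 in Hb-eGFP+ and 5814 in RFP+ control cells, with an interval of the log2 fold change from 0.02 to 0.35. NDUFS1, the largest subunit, which accepts electrons through its iron-sulfur clusters, had a log2 fold change of 0.00 with an interval from -0.14 to 0.14. None of the 8 assembly factor genes, NDUFAF1 to NDUFAF8, was called by limma, with 1 lower at an unadjusted p under 0.05 (NDUFAF1, at -0.17) and none by the lower bound of the fold. At that unadjusted threshold 16.8% of all genes were higher and 17.1% lower. Over all 40 genes of the complex 70.0% of the fold changes were above zero, beside 52.3% over all genes.

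Complexes II and III and cytochrome c held 11 of the genes. SDHA, the catalytic flavoprotein of succinate dehydrogenase, read 3504, 3769 and 3641 in Hb-eGFP+ cells and 3389, 3415 and 3442 in RFP+ control cells (log2 fold change 0.09, interval -0.06 to 0.24). SDHD, which anchors the enzyme in the membrane, read 2552, 2651 and 2554 in Hb-eGFP+ cells and 2643, 2664 and 2767 in RFP+ control cells (-0.06, interval -0.20 to 0.09). Neither was called by limma at an adjusted or an unadjusted p under 0.05. SDHB, SDHC and CYC1, the cytochrome c1 gene, were not analysed here. In complex III the small subunit gene UQCR11 was called, at 5108, 4468 and 5003 in Hb-eGFP+ cells, against 3664, 3771 and 4240 in RFP+ control cells (0.32, SE 0.09, limma adjusted p = 0.040), and the call was lost without Hb-eGFP+ replicate 1 or 3 or RFP+ control replicate 1 or 2 (adjusted p 0.11 to 0.13) and with the replicate block (adjusted p = 0.061). The other 7 genes of the complex lay between -0.01 and 0.20. For the core protein gene UQCRC1 the Hb-eGFP+ arrays read 8754, 8206 and 8496, above 7806, 8109 and 7568 in RFP+ control arrays, by a log2 fold change of 0.12 (interval -0.04 to 0.27) that was not called. CYCS, the cytochrome c gene, read 4828, 5246 and 4725 in Hb-eGFP+ cells and 4983, 5012 and 5360 in RFP+ control cells, so that the groups overlapped (-0.05, interval -0.22 to 0.11).

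Complex IV, cytochrome c oxidase, was read by 8 subunit genes, 9 genes of assembly factors and COX7A2L, which joins complexes into supercomplexes. NDUFA4 is counted among the subunits, where it is now placed. All 8 subunits had a log2 fold change above zero, from 0.05 to 0.23, beside 52.3% of all genes. Among them COX7B averaged 48.5 in Hb-eGFP+ and 45.9 in RFP+ control cells, and was not shown to lie above background. Only COX8A was called, at 2247, 2103 and 2112 in Hb-eGFP+ cells, against 1886, 1858 and 1760 in RFP+ control cells (0.23, SE 0.07, limma adjusted p = 0.049). This call lies at the threshold and was lost without any 1 of the 6 arrays (adjusted p 0.074 to 0.13) and with the replicate block (adjusted p = 0.091). COX4I1, the regulatory subunit at which ATP acts, read 9516, 9722 and 9771, against 9015, 8870 and 9410 (0.09, interval -0.06 to 0.23).

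The assembly factor genes of complex IV held the largest increase of the respiratory set. COX17, the copper chaperone that supplies the copper sites of the enzyme, read 1782, 1633 and 1715 in Hb-eGFP+ cells, against 1120, 1202 and 1412 in RFP+ control cells. All Hb-eGFP+ arrays were above all RFP+ control arrays, with means of 1710 ± 74.2 and 1245 ± 150 (SD, n = 3 each; log2 fold change 0.46, SE 0.10, limma adjusted p = 0.015). The call was kept in 12 of the 14 alternative fits and missed the threshold without Hb-eGFP+ replicate 1 (adjusted p = 0.058) and without Hb-eGFP+ replicate 3 (adjusted p = 0.055). COX19, also needed for the delivery of copper in yeast, read 1360, 1274 and 1351 in Hb-eGFP+ cells, against 1040, 1096 and 1143 in RFP+ control cells (0.28, limma adjusted p = 0.028), and was lost without Hb-eGFP+ replicate 1 or 3 or RFP+ control replicate 1 or 2 (adjusted p 0.068 to 0.10) and with the replicate block (adjusted p = 0.067). COX11, which inserts copper, lay in the other direction at -0.31 (interval -0.55 to -0.06, adjusted p = 0.085) and was not called. COX10 and COX15, the enzymes that make heme A for the oxidase, had log2 fold changes of 0.07 and 0.17 and were not called.

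**Figure D2:**
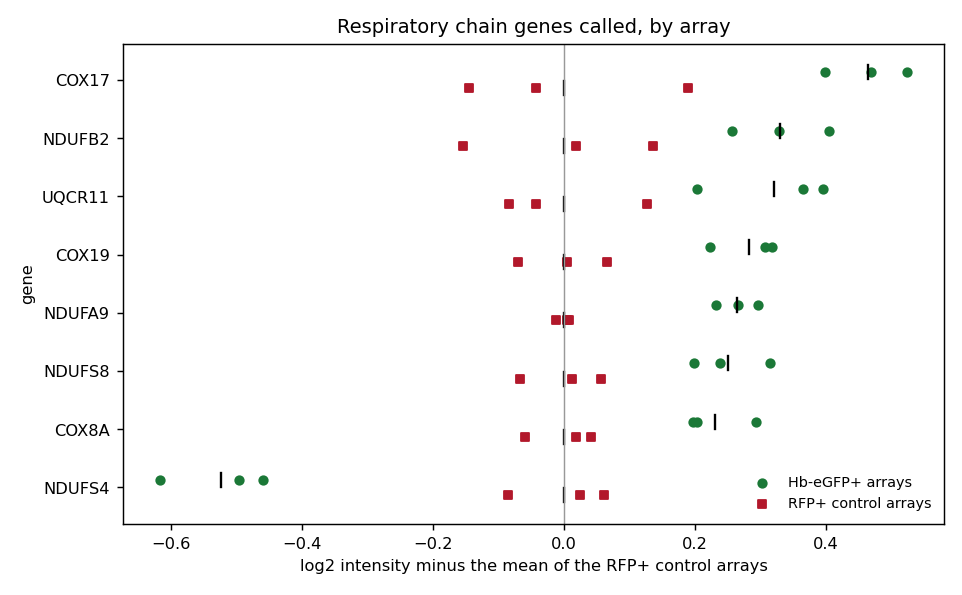
Log2 intensity of the 8 called respiratory chain genes (y axis) in each array, minus the mean of the RFP+ control arrays of that gene (x axis). Green circles are Hb-eGFP+ arrays, red squares RFP+ control arrays and ticks are group means (n = 3 each). For every gene drawn the 2 groups of arrays do not overlap, which adds nothing to the calls, since these were made on the same arrays. NDUFS4 alone lies to the left of zero, at -0.52.

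For the ATP synthase, complex V, none of 14 genes was called by limma, with 2 higher and none lower at an unadjusted p under 0.05 (ATP5S and ATP5G2), beside 16.8% and 17.1% of all genes, and none past the lower bound of the fold. All 14 intervals lay between -0.5 and 0.5, as did 71.3% of those of all genes. ATP5J averaged 51.2 in Hb-eGFP+ and 49.1 in RFP+ control cells, below the median probe set of every array. It was not shown to lie above background. The catalytic core genes ATP5F1AZ and ATP5B, which encode the alpha and beta subunits, had log2 fold changes of -0.06 (interval -0.22 to 0.10) and 0.02 (interval -0.15 to 0.20). ATP5F1AZ read 11386, 12265 and 11913 in Hb-eGFP+ cells and 12572, 12663 and 11780 in RFP+ control cells. Of the 3 genes for subunit c, which forms the rotating ring, ATP5G3 read 12526, 12712 and 12618 in Hb-eGFP+ cells and 12315, 11818 and 12118 in RFP+ control cells (0.06, interval -0.08 to 0.20), ATP5G1 changed by 0.11 (interval -0.04 to 0.26) and ATP5G2 by 0.18 (interval 0.03 to 0.33). Every Hb-eGFP+ array was above every RFP+ control array for all 3, as for 20.6% of all genes, yet none was called. In the RFP+ control arrays ATP5G2 read 86.9, 88.1 and 85.1, below the median probe set of each. It was not shown to lie above background there.

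**Figure D3:**
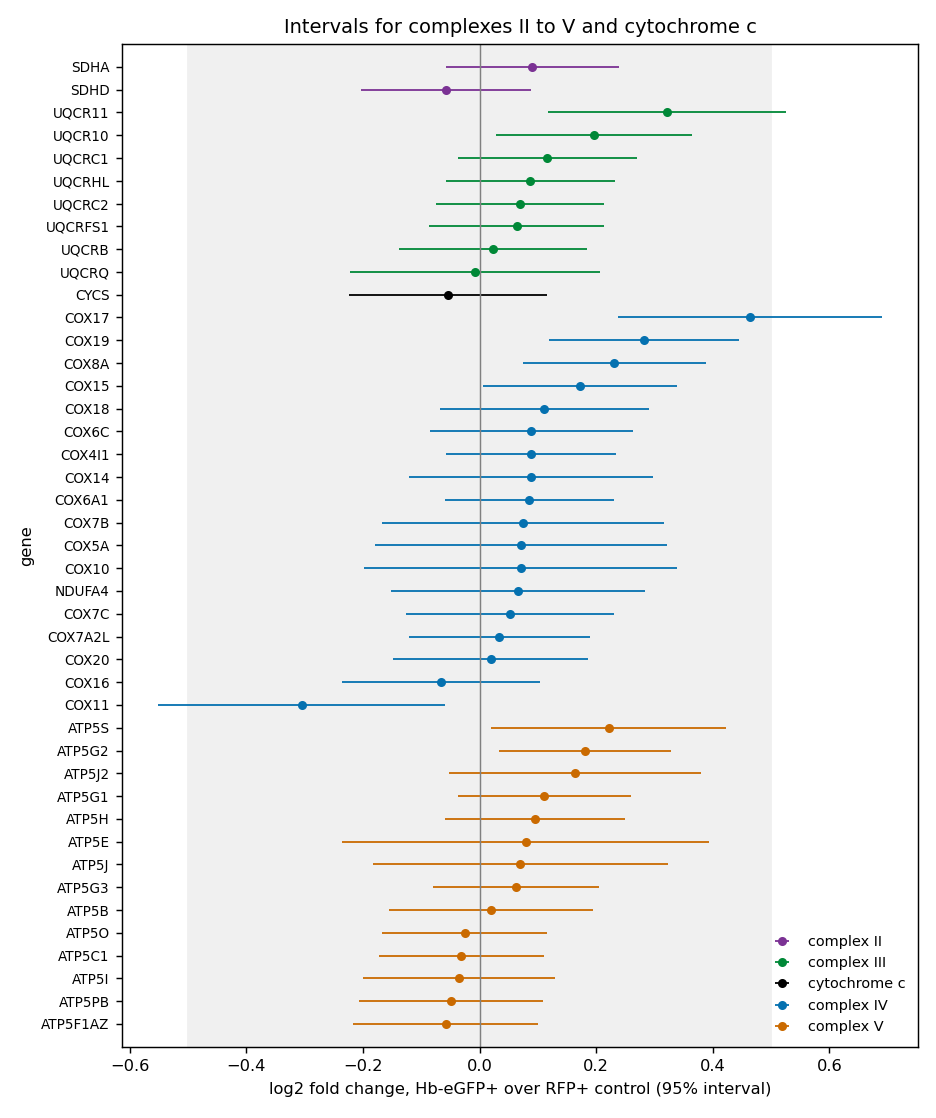
Log2 fold change of Hb-eGFP+ over RFP+ control cells (x axis) with its 95% interval from limma for the genes of complexes II to V and cytochrome c (y axis, coloured by complex, assembly factors included). The grey band spans -0.5 to 0.5. The intervals of UQCR11, COX17 and COX11 reach past it.

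Array by array, the groups were separated for about the same share of respiratory genes as of all genes, both directions together. The split between the directions differed. For 30 of the 83 respiratory genes every Hb-eGFP+ array was above every RFP+ control array and for 3 every one was below, that is 36.1% and 3.61%. Over all genes the same was seen for 20.6% and 18.8%.

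Among the 33 carriers, 11 were called higher in Hb-eGFP+ cells and 1 was called lower, that is 33.3% and 3.03%, beside 9.19% and 10.7% of all genes. They were led by the glutamate carrier gene SLC25A22, by SLC25A14, a relative of the uncoupling proteins, and by SLC25A16, which is linked to the supply of coenzyme A in the matrix. The lower gene was SLC25A21, the carrier of oxodicarboxylates such as 2-oxoadipate. The median log2 fold change of the 33 was 0.14, and in single arrays it was 0.188, 0.108 and 0.131 in Hb-eGFP+ cells and 0.012, 0.009 and -0.014 in RFP+ control cells, relative to the RFP+ control mean. The groups did not overlap by this measure. Without 1 array the count of 11 was 6 to 10, at 6 without Hb-eGFP+ replicate 1 or 3 and 7 without RFP+ control replicate 1 or 2, and with the replicate block it was 9. With the mean over all probe sets of a gene in place of its brightest, 6 carriers were higher and the median was 0.05. Whether carriers and respiratory genes differ from each other as sets was not tested.

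SLC25A22 was higher, at 5278, 4621 and 4655 in Hb-eGFP+ cells, against 3384, 3526 and 3054 in RFP+ control cells. The groups lay apart, with means of 4852 ± 370 and 3321 ± 242 (SD, n = 3 each; log2 fold change 0.55, SE 0.09, limma adjusted p = 0.0043), a ratio of 1.46 that was the largest of all 116 genes. SLC25A14 read 2234, 1944 and 1985 in Hb-eGFP+ cells, against 1477, 1616 and 1313 in RFP+ control cells (0.49, SE 0.10, limma adjusted p = 0.012). SLC25A24, a calcium-dependent carrier that exchanges ATP-magnesium for phosphate, read 2335, 2258 and 2240, against 1801, 1823 and 1642 (0.38, SE 0.07, limma adjusted p = 0.0086). These 3 genes were called in each of the 14 alternative fits. The second probe sets of SLC25A22, SLC25A14 and SLC25A24 averaged 35.1, 129 and 87.9 in Hb-eGFP+ cells and 32.4, 114 and 76.0 in RFP+ control cells, and none of them was called.

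SLC25A21 read 386, 424 and 389 in Hb-eGFP+ cells, against 565, 510 and 503 in RFP+ control cells. All Hb-eGFP+ arrays lay below all RFP+ control arrays (log2 fold change -0.40, SE 0.08, limma adjusted p = 0.011), and the call missed the threshold without Hb-eGFP+ replicate 3 (adjusted p = 0.0502). SLC25A43, a carrier with no assigned substrate here, read 375, 344 and 365 in Hb-eGFP+ cells, against 274, 279 and 285 in RFP+ control cells (0.37, SE 0.07, limma adjusted p = 0.0071). It was called in 13 of the 14 alternative fits, the exception being the mean over its 2 probe sets (0.24, adjusted p = 0.14). SLC25A16 read 969, 906 and 819, against 747, 622 and 576 (0.48, SE 0.11, limma adjusted p = 0.024), a call lost without Hb-eGFP+ replicate 1 or 2 or RFP+ control replicate 2 or 3 (adjusted p 0.059 to 0.088).

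**Figure D4:**
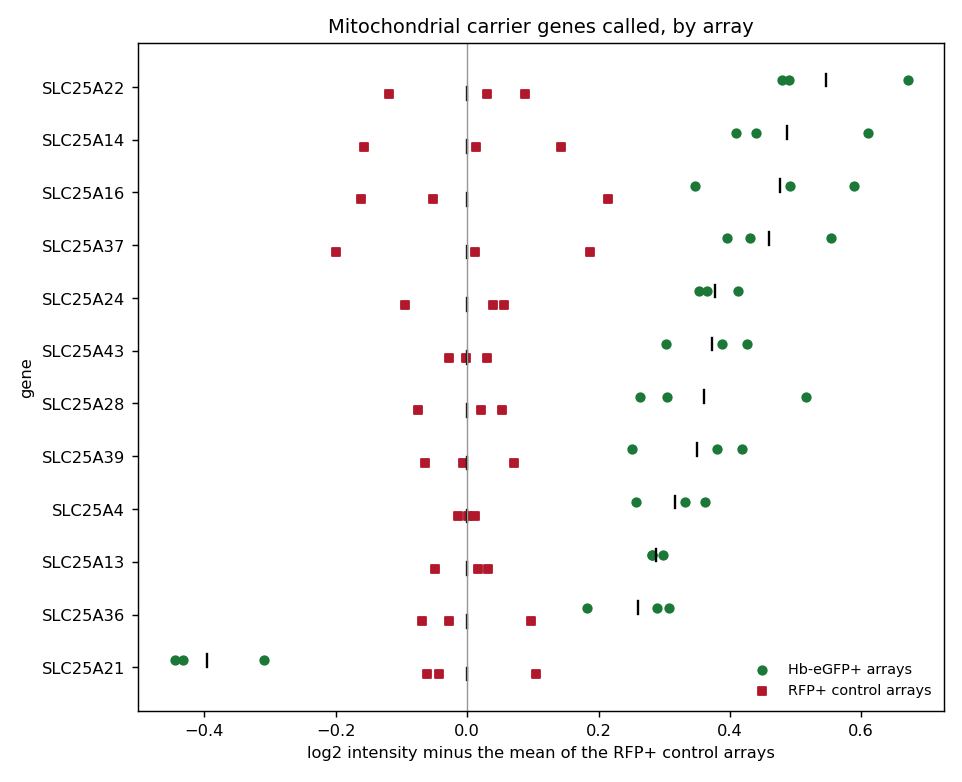
Log2 intensity of the 12 called carrier genes (y axis) in each array, minus the mean of the RFP+ control arrays of that gene (x axis). Green circles are Hb-eGFP+ arrays, red squares RFP+ control arrays and ticks are group means (n = 3 each). SLC25A22 lies farthest to the right with a mean of 0.55, and SLC25A21 is the gene on the left at -0.40.

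Both mitoferrins, which import iron, were called higher in the main fit, beside 9.19% of all genes. SLC25A37, mitoferrin 1, which serves heme synthesis in red cell precursors of mice and zebrafish, read 1768, 1584 and 1624 in Hb-eGFP+ cells, against 1215, 1371 and 1049 in RFP+ control cells. The arrays did not overlap (means 1659 ± 96.5 and 1212 ± 161, SD, n = 3 each; log2 fold change 0.46, SE 0.11, limma adjusted p = 0.022). The call was kept in 11 of the 14 alternative fits and lost without Hb-eGFP+ replicate 1 (adjusted p = 0.082), without Hb-eGFP+ replicate 3 (adjusted p = 0.065) and without RFP+ control replicate 1 (adjusted p = 0.053). Its 3 further probe sets had log2 fold changes of 0.15, 0.44 and 0.20 and were not called. SLC25A28, mitoferrin 2, the form of most other tissues, read 286, 246 and 239 in Hb-eGFP+ cells, against 203, 207 and 189 in RFP+ control cells (0.36, SE 0.09, limma adjusted p = 0.026). Its other probe set read 71.5, 102 and 98.8 in Hb-eGFP+ cells and 261, 89.0 and 74.5 in RFP+ control cells. Only RFP+ control replicate 1 lay above the Hb-eGFP+ arrays. The mean of both probe sets gave -0.03 (limma adjusted p = 0.94), a value that depends on that array. The call of SLC25A28 was also lost without Hb-eGFP+ replicate 1 or any 1 of the RFP+ control arrays (adjusted p 0.051 to 0.072). With adjustment over all probe sets it was lost too (adjusted p = 0.061), so that 8 of the 14 alternative fits kept it.

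Carriers of amino acids and glutathione, 7 genes, had 3 higher and none lower, beside 9.19% and 10.7% of all genes. Their median log2 fold change was 0.01, with 4 genes above zero and 3 below. The lowest, SLC25A29, had every Hb-eGFP+ array below every RFP+ control array. It was not called (-0.28, interval -0.50 to -0.06, limma adjusted p = 0.076). SLC25A39, which imports glutathione and whose loss impairs heme synthesis in zebrafish, read 1245, 1138 and 1279 in Hb-eGFP+ cells, against 951, 915 and 1004 in RFP+ control cells (log2 fold change 0.35, SE 0.08, limma adjusted p = 0.017). It was called in 9 of the 14 alternative fits and lost without Hb-eGFP+ replicate 1 (adjusted p = 0.056), without Hb-eGFP+ replicate 3 (adjusted p = 0.072), without RFP+ control replicate 1 (adjusted p = 0.053), without RFP+ control replicate 2 (adjusted p = 0.055) and with the mean over its probe sets (adjusted p = 0.080). SLC25A38, which imports the glycine used for heme in yeast and zebrafish, read 338, 362 and 334 in Hb-eGFP+ cells and 341, 379 and 308 in RFP+ control cells. Its groups overlapped throughout (0.01, interval -0.20 to 0.23).

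The aspartate-glutamate carriers SLC25A13 and SLC25A12, which serve the malate-aspartate shuttle, lay in opposite directions. SLC25A13 read 6624, 6701 and 6628 in Hb-eGFP+ cells, against 5512, 5574 and 5271 in RFP+ control cells (log2 fold change 0.29, SE 0.06, limma adjusted p = 0.017). A second SLC25A13 probe set averaged 3881 in Hb-eGFP+ and 3010 in RFP+ control cells and was called over all probe sets (0.37, limma adjusted p = 0.022). In that fit the first probe set was not called (limma adjusted p = 0.053). The call of the first was also lost without Hb-eGFP+ replicate 3 (adjusted p = 0.064), without RFP+ control replicate 1 (adjusted p = 0.053) and with the replicate block (adjusted p = 0.052). SLC25A12 read 483, 442 and 494, against 534, 518 and 535, without overlap, and was not called (-0.16, interval -0.33 to 0.00). The log2 ratio of SLC25A13 to SLC25A12 within an array was 3.78, 3.92 and 3.75 in Hb-eGFP+ arrays and 3.37, 3.43 and 3.30 in RFP+ control arrays, a difference of 0.45.

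Of the 6 carriers of ATP, ADP and phosphate, 2 were higher, SLC25A24 and SLC25A4, and none was lower, beside 9.19% and 10.7% of all genes. Of the 3 ADP/ATP translocase genes 1 was called. SLC25A4, the form known from heart and muscle in mammals, read 3393, 3223 and 3466 in Hb-eGFP+ cells, against 2721, 2700 and 2671 in RFP+ control cells (log2 fold change 0.32, SE 0.06, limma adjusted p = 0.012). SLC25A5 read 5798, 5751 and 5398 in Hb-eGFP+ cells and 5526, 5898 and 5371 in RFP+ control cells (0.01, interval -0.15 to 0.18). SLC25A6 read 14653, 15341 and 15107, against 15938, 15229 and 15636 (-0.05, interval -0.20 to 0.09), and the phosphate carrier SLC25A3 9185, 10026 and 9949, against 9983, 9849 and 10421 (-0.05, interval -0.21 to 0.11). The groups overlapped for SLC25A5, SLC25A6 and SLC25A3.

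The SLC25A4 result has limits of its own. Its 2 further probe sets, at 60.1 and 38.9 in Hb-eGFP+ cells and 66.0 and 39.9 in RFP+ control cells, were not called, the first with every Hb-eGFP+ array below every RFP+ control array, and the mean over all 3 gave 0.05 (adjusted p = 0.69). It was also lost without Hb-eGFP+ replicate 3 (adjusted p = 0.060). The brightest probe set of SLC25A4 carries the suffix by which the manufacturer marks probes shared by several transcripts, so signal from a related transcript cannot be told apart from its own. This holds for 27 of the 116 genes and for 6 of the 20 called ones, namely SLC25A4, SLC25A13, SLC25A14, SLC25A36, SLC25A37 and NDUFA9.

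Within-array ratios of 8 pairs of related genes, chosen after the values had been seen, do not depend on the scaling of an array. The log2 ratio of SLC25A4 to SLC25A6 was -2.11, -2.25 and -2.12 in Hb-eGFP+ arrays and -2.55, -2.50 and -2.55 in RFP+ control arrays, a difference of 0.37. That of SLC25A4 to SLC25A5 differed by 0.30, and the groups did not overlap in either ratio. The two-sided exact permutation p was 0.1 for these and for the SLC25A13 to SLC25A12 ratio, the smallest that 20 assignments of 3 arrays against 3 allow, so that p under 0.05 could not be reached (adjusted over the 8 pairs, 0.16). The same p was found for SLC25A36 to SLC25A33, with a difference of 0.22. Nothing is read from the ratio of SLC25A14 to SLC25A30, since SLC25A30 averaged 38.0 in Hb-eGFP+ and 33.8 in RFP+ control cells, below the median probe set of every array, and was not shown to lie above background. The ratio of mitoferrin 1 to mitoferrin 2 differed by 0.10 with overlapping arrays (exact p = 0.3), that of SLC25A24 to its relative SLC25A25 by 0.06 (exact p = 0.8) and that of ATP5G1 to ATP5G3 by 0.05 (exact p = 0.4).

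**Figure D5:**
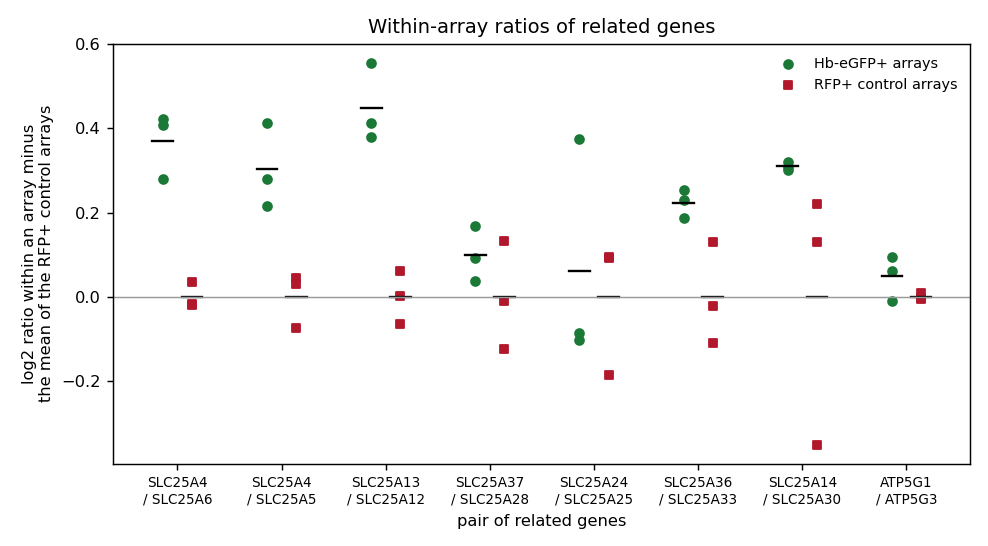
Log2 ratio of 2 related genes within each array, minus the mean of the RFP+ control arrays (y axis), for 8 pairs (x axis). Green circles are Hb-eGFP+ arrays, red squares RFP+ control arrays and bars are group means (n = 3 each). The groups lie apart for SLC25A4 against SLC25A6, by 0.37, and for SLC25A13 against SLC25A12, by 0.45, and overlap for SLC25A37 against SLC25A28. SLC25A30 is dim, and its ratio is not read.

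The 8 carriers of other nucleotides and cofactors all had a log2 fold change above zero by their brightest probe sets, beside 52.3% of all genes. Their further probe sets did not all share that sign. The second lay at -0.23 for SLC25A17, -0.16 for SLC25A26 and 0.25 for SLC25A16, and those of SLC25A42 ranged from -0.36 to 0.05, none of them called. Of these 8 genes, SLC25A16 and the pyrimidine nucleotide carrier SLC25A36 were called higher, beside 9.19% of all genes. SLC25A36 read 1820, 1668 and 1797 in Hb-eGFP+ cells, against 1573, 1402 and 1442 in RFP+ control cells (0.26, limma adjusted p = 0.049), and its call was lost without any 1 of the 6 arrays (adjusted p 0.052 to 0.15) and with the replicate block (adjusted p = 0.071). For the folate carrier gene SLC25A32 the 6 probe sets disagreed: the brightest was not called (0.28, interval -0.003 to 0.56), another averaged 463 in Hb-eGFP+ and 319 in RFP+ control cells and was called higher, and yet another averaged 88.5 in Hb-eGFP+ and 126 in RFP+ control cells and was called lower, both over all probe sets. Of the 4 carriers of carboxylates and acylcarnitine, SLC25A21 was called. The citrate carrier SLC25A1 averaged 121 in Hb-eGFP+ and 113 in RFP+ control cells (0.10, interval -0.20 to 0.40), and the carnitine carrier SLC25A20 averaged 2613 in Hb-eGFP+ and 2664 in RFP+ control cells (-0.03, interval -0.21 to 0.16).

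A second reading of a gene on the same arrays was available for many members. The 18 genes called higher had 21 further probe sets, 12 of which were dimmer than the median probe set of the array. Of the 21, 1 was called higher and none lower over all probe sets, and 17 had a log2 fold change above zero. Over all probe sets 4.02% were called higher and 5.05% lower. Among the 80 further probe sets of genes that were not called, 3 were higher and 2 lower, and 38 lay above zero.

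Other genes of the mitochondrion were read from lists drawn up for their known roles. Of 67 genes of mitochondrial ribosomal proteins, which translate the subunits encoded in mitochondrial DNA, 8 were higher and 1 was lower, with a median log2 fold change of 0.08. The highest was MRPL43, at 897 ± 63.3 in Hb-eGFP+ and 529 ± 35.0 in RFP+ control cells (SD, n = 3 each; 0.76, limma adjusted p = 0.00064). Of 15 genes of the citric acid cycle and pyruvate entry 2 were higher, IDH3B (0.47) and DLD (0.26), and none was lower. MRPL43, IDH3B and DLD were each read by a probe set marked as shared by several transcripts. Of 24 assembly factor genes outside the symbols above 4 were higher and none lower. The higher ones were SDHAF4 (0.44), SDHAF1 (0.47) and SDHAF3 (0.31), which help to build complex II, and ATPAF2 (0.28) of complex V. Of the 24, 8 lay below zero, the lowest at -0.96, and none of these was called. The counts of genes called higher and lower in these lists stand beside 9.19% and 10.7% of all genes.

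Of 24 genes of mitochondrial protein import, 5 were higher and 2 lower, beside 9.19% and 10.7% of all genes. TIMM10B, of the intermembrane space, rose by 0.53, whereas PAM16, of the import motor, fell to 172, 299 and 172 in Hb-eGFP+ cells, against 709, 529 and 560 in RFP+ control cells (log2 fold change -1.52, SE 0.22, limma adjusted p = 0.0029), read by a probe set shared by several transcripts. Of 14 genes for mitochondrial DNA and its regulators, 1 was higher and 2 were lower, beside the same 9.19% and 10.7%. The lowest log2 fold change of the 14, -1.73, was not called. TFAM, which packages and transcribes mitochondrial DNA, was not called (0.07, interval -0.08 to 0.22). The transcription factor NRF1, which acts on respiratory chain genes, was lower at 225, 256 and 209 in Hb-eGFP+ cells, against 340, 307 and 292 in RFP+ control cells (-0.45, SE 0.10, limma adjusted p = 0.018). PPARGC1A, a coactivator of mitochondrial biogenesis, was also lower, at 85.9, 111 and 82.9, against 168, 137 and 129 (-0.64, SE 0.14, limma adjusted p = 0.018). In Hb-eGFP+ replicates 1 and 3 PPARGC1A read below the median probe set of the array and was not shown to lie above background. Whether the calls of NRF1 and PPARGC1A hold without 1 array is not reported here. Of 10 genes of porins, the pyruvate carrier and the calcium uniporter, none was called by limma, with 3 higher and none lower at an unadjusted p under 0.05, beside 16.8% and 17.1% of all genes.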

How the data were processed

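The authors sorted the cells by FACS, amplified 40 ng of total RNA per sample in 2 cycles, hybridized 6 Affymetrix Chicken Genome Arrays, scanned them with GCOS 1.4 and normalized them in dChip 2008. The deposited value per probe set is a model-based signal intensity on a linear scale (Perfect Match probes only). dChip's normalization method and background treatment were not given in the sources used here. All intensities, from 1 to 20134, were taken to log2 with no further scaling. Values below 1 would have been set to 1, and there were 0 of them.

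Gene names come from the platform annotation, in which 27168 probe sets have 1 gene, 177 several and 11094 none listed. Gene IDs of 26853 were found in the RefSeq table of assembly GRCg7b, used for names only. Of 132 symbols in that table that match the rule, 16 had no one-gene probe set and were not analysed here, the mitochondrially encoded COX1, COX2 and COX3 among them. No sequences were used.

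Groups were compared with limma 3.58.1 (lmFit and eBayes, two-sided, group as the only term) in R 4.3.3 over 13051 genes. Single ratios were compared with exact permutation tests in SciPy 1.17.1. The lower bound is that of the ratio of linear means at the 90% level against a fold of 1.7, computed from the array-to-array spread. In simulated data with the spread of these arrays, limma called 80.6%, 89.6% and 98.5% of genes changed 1.5-, 2- and 4-fold. It also called 6 unchanged genes. The changed genes were drawn only from genes brighter than the median probe set. They were fewer than the genes called in the real data. The largest increase among the respiratory and carrier genes was 1.46-fold (SLC25A22), and no fold below 1.5 was simulated. These rates therefore do not show how often changes of the size seen in these genes would be called. The 14 alternative fits leave out each of the 6 arrays, or use quantile normalization, arrays centred on their medians, an offset of 50, only probe sets that are not dim, limma's trend and robust options, a block for the replicate number, a gene's mean over its probe sets, or p-values adjusted over every probe set.

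Members, gene lists and tests were chosen with earlier results of these data known. Named genes are the 12 largest called changes per direction, the brightest and the most significant gene of each class, and genes of known role; the others named were chosen after their values were seen.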

Additional observations from a re-analysis of the deposited data

How the results depend on the processing

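The 3 arrays a group, and annotation in which several probe sets of a gene can disagree, limit these results. Of the 20 called genes, 10 were called with p-values adjusted over all probe sets, 12 with the mean over probe sets, 15 after quantile normalization, and 20 each with dim probe sets removed, median centring, an offset of 50 or trend and robust variances. NDUFS4, SLC25A14, SLC25A22 and SLC25A24 were called in each of the 14 fits. Causes of the differences were not tested, apart from the number of tests or arrays where that is what was changed.

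With all probe sets, 8 of the 116 genes were higher, 1 of the respiratory genes (0 in complex I, 0 in complex III, 1 in complex IV), 7 carriers and 749 of all genes. With the mean over probe sets the counts were 10 of 116, 4 respiratory, 1 in complex I and 6 carriers, and the median log2 fold changes were 0.037 in complex I, 0.048 in complex III and 0.048 in carriers. Median centring gave a complex III median of 0.091 and the offset of 50 a carrier median of 0.091. Quantile normalization left 3 respiratory genes higher, 1 in complex I and 0 in complex III. Trend and robust variances gave 11 respiratory genes higher and 2 lower, 6 and 2 in complex I and 2 higher in complex III. For the mean over probe sets, quantile normalization and trend and robust variances the counts over all genes are not reported here. Whether the member counts moved more than those of all genes in these fits was not assessed. With a lower 90% bound of the fold above 1.7, or with a fold of at least 1.7 beside the adjusted p, 0 genes passed in either direction among the 116, the respiratory genes, complexes I, III and IV and the carriers, while over all genes 167 and 230 were higher and 280 and 453 lower.

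Each pool gave a sample of both groups, and the labels number the replicates in both, but the sources do not say that a number marks a pool. Deviations of same-numbered arrays correlated at -0.16, -0.07 and 0.19, which does not settle the pairing. With the replicate number as a block 10 of the 116 genes were higher, 1 of the respiratory genes, 0 in complex I, 0 in complex III and 1 in complex IV, and 12 of the 20 called genes were called. The count over all genes in the block fit is not reported here, so whether calls fell more among the 116 was not assessed.

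Leaving out each array in turn gave 6 to 14 higher and 1 to 3 lower of the 116 genes, 0 to 5 respiratory genes higher, 0 to 2 in complex I, 0 to 1 in complex III and 0 to 2 in complex IV, and 6 to 10 carriers higher and 0 to 2 lower, with a carrier median of 0.085 to 0.19. Over all genes it gave 742 to 1072 higher and 921 to 1293 lower.

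No called gene but SLC25A28 changed sign (-0.032 with the mean over probe sets). Among the uncalled named genes CYCS was 0.011 and SLC25A20 0.043 with that mean. Without 1 array the log2 fold change ranged from -0.016 to 0.052 for SLC25A5, -0.026 to 0.072 for ATP5B, -0.061 to 0.090 for SLC25A38, -0.035 to 0.19 for SLC25A1 and -0.074 to 0.023 for SLC25A20.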

Other observations

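Genes of fatty acid oxidation, which feeds electrons into the chain, gave 1 higher and 1 lower call among 10 by limma, beside 9.19% and 10.7% of all genes. ACADL, the long-chain acyl-CoA dehydrogenase, read 2425, 2510 and 2400 in Hb-eGFP+ cells, against 1556, 1464 and 1227 in RFP+ control cells (log2 fold change 0.80, standard error (SE) 0.10, limma adjusted p = 0.0011). This was larger than the change of any respiratory chain or carrier gene, and its probe set is marked as shared by several transcripts. ECHS1, an enoyl-CoA hydratase, read 947, 883 and 884, against 1120, 1048 and 1164 (-0.30, SE 0.07, limma adjusted p = 0.026). For both genes the arrays of the groups did not overlap. Of 7 genes of mitochondrial antioxidant enzymes none was called by limma, with 2 higher and none lower at an unadjusted p under 0.05, beside 16.8% and 17.1% of all genes. All 7 intervals lay between -0.5 and 0.5, as did 71.3% of those of all genes.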
